A study of Mus musculus with 10 samples.

Results

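Fibroblasts of the meninges and the collagen matrix they lay down were followed through 38 genes, in pons, medulla and rostral spinal cord of neonatal mice that carry or lack the transcription factor Nkx2.2. Every probe set of the array whose gene symbol is one of the 38 was taken, which gave 73 probe sets for 37 genes out of 45037 probe sets and 18193 genes in all. Fbn1 was not analysed here. Counts over genes use the probe set of highest mean over the 10 arrays for each gene, called its brightest probe set. There were 5 wild-type arrays, numbered 14, 15, 16, 18 and 21, and 5 from Nkx2.2-/- animals, numbered 11, 12, 22, 29 and 43, all of the C57BL/6 strain and aged 1.5 to 2 days. Each array holds the RNA of 1 mouse, taken from that tissue as cut out of 20 µm frozen sections of the perfused animal. The series describes the controls as littermates, and the litter of each mouse and the part of the gene that the allele removes are not given in the sources used here. Values are log2 RMA values, in which 1 unit is a doubling of the signal, and every change is Nkx2.2-/- minus wild type. As a check of the labels, Nkx2-2 itself read from 6.42 to 6.88 in wild type and from 4.24 to 4.73 in Nkx2.2-/-, a change of -2.05 (limma adjusted p = 7.2e-05). Array medians lay between 5.07 and 5.12.

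The meninges wrap the brain and spinal cord in layers of fibroblasts. The dura and arachnoid lie outside, and the pia follows the surface of the tissue and enters it with the larger vessels. These cells make fibrillar collagen and the small leucine-rich proteoglycans that bind it, and in development they supply the underlying tissue with retinoic acid and insulin-like growth factor 2. Mural cells of vessels, choroid plexus stroma and bone share part of the same gene set. A dissection of brainstem can carry part of this layer, and how much each sample held was not measured apart from the RNA of such genes.

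The amount of meningeal signal spanned a wider range over the wild-type mice than over the Nkx2.2-/- mice, and the groups overlapped. The mean over the 37 genes was 6.67, 7.10, 6.47, 6.76 and 6.16 in wild-type replicates 14, 15, 16, 18 and 21. It was 6.23, 6.60, 6.22, 6.50 and 6.36 in Nkx2.2-/- replicates 11, 12, 22, 29 and 43. All 5 Nkx2.2-/- mice thus lay inside the wild-type range, and the lowest and the highest mouse of the series were both wild type. The group means were 6.63 ± 0.347 and 6.38 ± 0.167 (SD, n = 5 each), a difference of -0.25. In size this was below the wild-type SD and above the Nkx2.2-/- SD. Between the extreme wild-type mice, replicates 15 and 21, the mean differed by 0.94, or 1.91-fold, and between the extreme Nkx2.2-/- mice by 0.38, or 1.30-fold. In bulk tissue, fewer meningeal cells and less RNA of these genes per cell cannot be told apart.

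No member passed the test between the genotypes over all probe sets. Of the 73 member probe sets 0 were lower and 0 higher (limma with Benjamini-Hochberg adjustment), where 0.0511% of all probe sets were lower and 0% higher. At an unadjusted limma p under 0.05, 4 of the 73 were lower and 0 higher, beside 2.35% and 1.08% of all probe sets, and 61 were lower in sign, beside 49.2%. By brightest probe set, 0 of 37 genes were called against 0.0605% of all genes. The smallest adjusted p of a member was 0.9997 (limma). At the same unadjusted threshold there were 4 lower genes, Bgn, Col8a1, Igfbp2 and Pcolce, and 0 higher ones, where 3.01% of all genes were lower and 0.682% higher. The groups overlapped in every member, while 0.528% of all genes had every Nkx2.2-/- value below every wild-type value, as did 0.442% of all probe sets.

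In sign, 35 of the 37 genes had the lower mean in Nkx2.2-/-, where 53% of all genes did. The exceptions were Aldh1a2 and Thbs2. The median change over the members was -0.24, beside -0.0042 over all 18193 genes. Most members were high and low in the same mice, so their signs are not independent of each other. The change was smaller in size than the wild-type SD in 32 of 37. The share over all genes was not computed, and genes without a change often meet this too, so the count is only a description. Leaving out wild-type replicate 15, the mouse with the highest mean, brought the mean change from -0.25 to -0.13 and the number of genes higher in sign from 2 to 5. Leaving out wild-type replicate 21, the mouse with the lowest mean, brought the mean change to -0.37 and that number to 0. When each array was left out in turn, the most negative change came without replicate 21 in 30 of the 37 genes, and the least negative or highest without replicate 15 in 24.

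**Figure D1:**
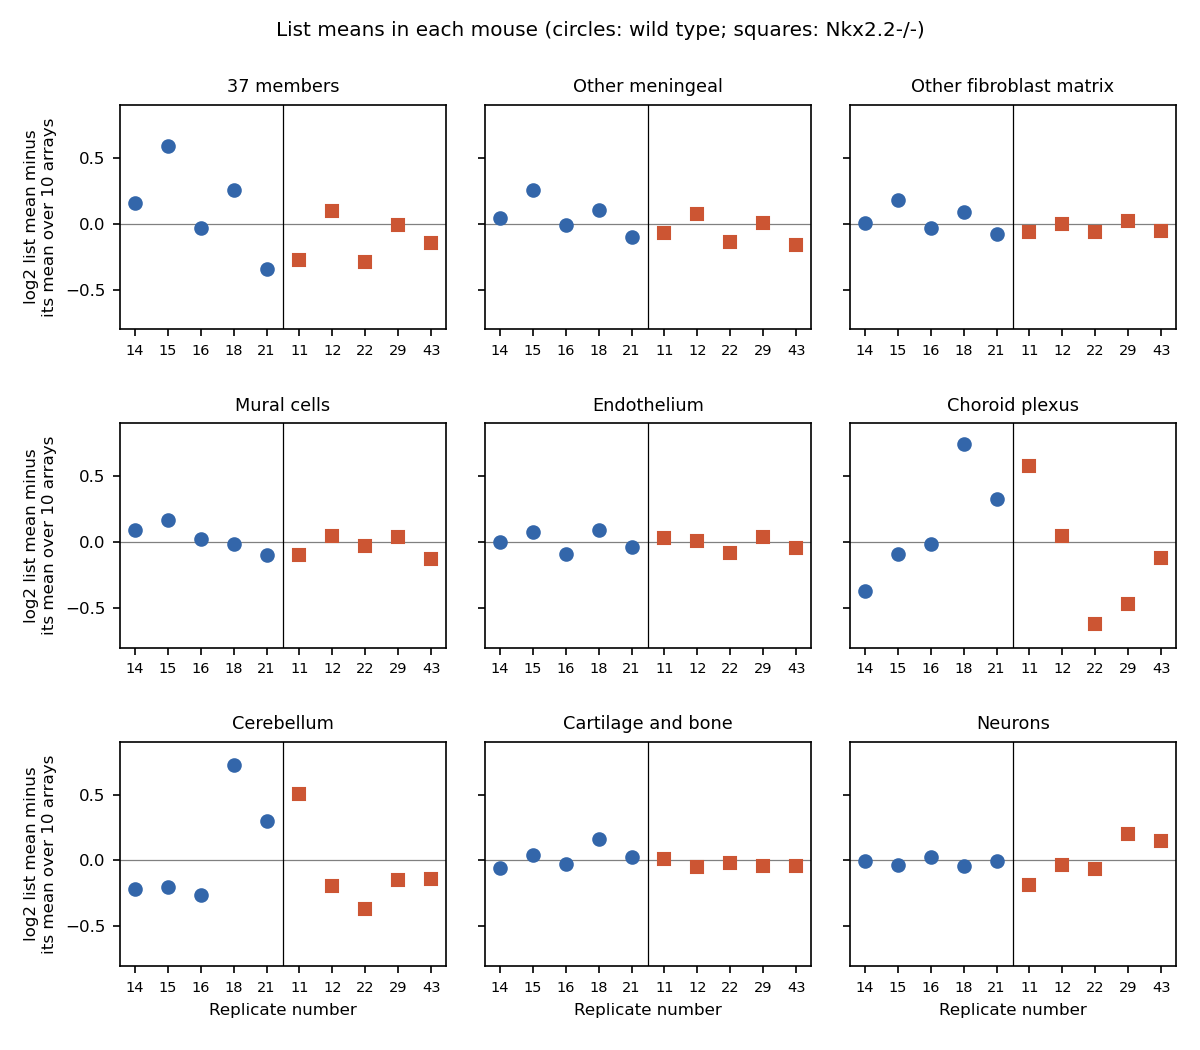
Mean log2 value of each gene list in each mouse, minus the mean of that list over the 10 arrays (vertical axes, 1 scale for all panels), by replicate number (horizontal axes). Wild-type mice are circles and Nkx2.2-/- mice squares. The 37 members run from wild-type replicate 15 at the top to replicate 21 at the bottom, the mural and endothelial lists vary less, and the choroid plexus and cerebellum lists put other mice on top.

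Wild-type replicate 15 was the highest of all 10 arrays in 26 of the 37 genes, or 70.3%, and it was the highest in 7.10% of all genes. It exceeded every Nkx2.2-/- array in 34 members, a count for which the share over all genes was not computed. Wild-type replicate 21 was the lowest wild-type array in 31 members, or 83.8%, beside 23.4% of all genes. It lay below the Nkx2.2-/- mean in 31 members, and that share over all genes was not computed either. It was the lowest of all arrays in 14, or 37.8%, against 9.67% of all genes. Among the Nkx2.2-/- arrays, replicate 12 was highest in 22 members, or 59.5%, beside 11.6% of all genes. Replicates 22, 11 and 43 were lowest of that group in 15, 12 and 10. These were 40.5%, 32.4% and 27.0% of the members, beside 27.2%, 20.1% and 27.0% of all genes. In no member was an Nkx2.2-/- array the highest of the 10. Over all genes, replicates 11, 12, 22, 29 and 43 were the highest in 8.64%, 5.39%, 11.4%, 10.2% and 19.6%. The wild-type SD exceeded the Nkx2.2-/- SD in 31 of 37 members, while it did so in 36.6% of all genes. The median SD of a member was 0.370 in wild type and 0.279 in Nkx2.2-/-, beside 0.0963 and 0.110 over all genes.

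**Figure D2:**
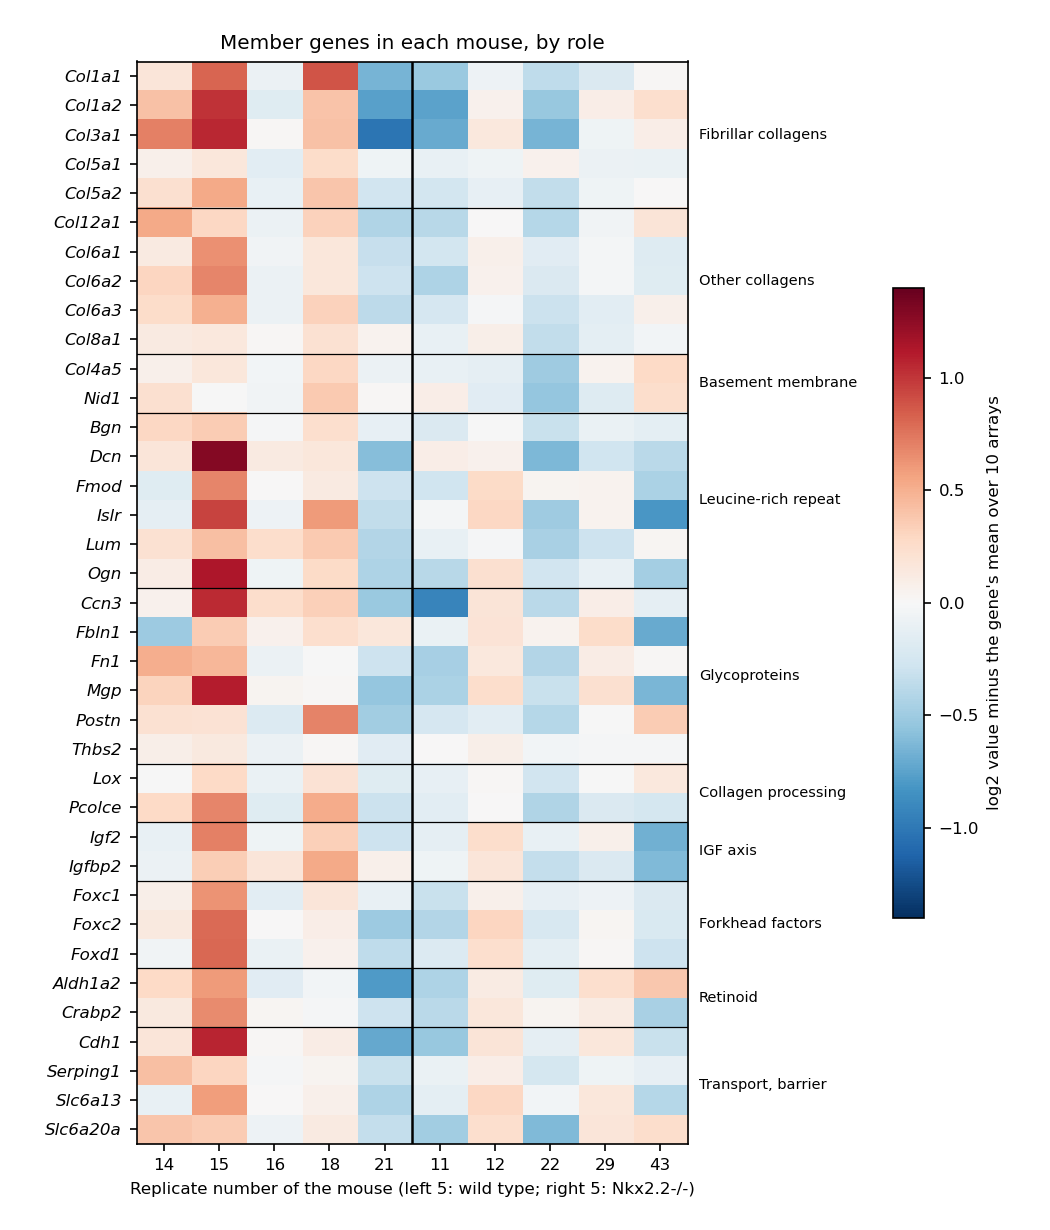
Log2 value of each of the 37 genes in each mouse, minus the mean of that gene over the 10 arrays (colour, red above and blue below), with genes in rows by role and mice in columns by replicate number, wild type left of the black line. Wild-type replicate 15 is red in nearly every row and replicate 21 blue in most, while Nkx2.2-/- replicate 43 is blue for Igf2, Igfbp2, Fbln1, Mgp and Islr and not for most collagens.

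Fibrillar collagens are the rope-like collagens of connective tissue, and all 5 were lower in sign, with changes from -0.47 to -0.11. Values below are given for wild-type replicates 14, 15, 16, 18 and 21, and then for Nkx2.2-/- replicates 11, 12, 22, 29 and 43. Col3a1, the chain of type III collagen, read 9.00, 9.35, 8.31, 8.70 and 7.27, and then 7.59, 8.44, 7.64, 8.23 and 8.38. Its wild-type mice spanned 4.24-fold and its Nkx2.2-/- mice 1.80-fold, and replicate 21 was the lowest of all. Nkx2.2-/- minus wild type came to -0.47 (95% interval -1.23 to 0.30, limma adjusted p = 0.9997), with -0.26 without replicate 15 and -0.78 without replicate 21. Col1a1, a chain of type I collagen, read 6.57, 7.21, 6.31, 7.28 and 5.74, and then 5.87, 6.32, 6.04, 6.19 and 6.41. Replicates 15 and 18 stood at the top, replicate 14 just above the Nkx2.2-/- mice, replicate 16 among them and replicate 21 below them. The change was -0.46 (95% interval -1.04 to 0.12) and ran from -0.68 without replicate 21 to -0.29 without replicate 18.

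Col1a2, the partner chain of type I collagen, read 8.76, 9.36, 8.17, 8.75 and 7.58, and then 7.60, 8.41, 7.82, 8.43 and 8.58. By this brightest probe set replicate 18 was no higher than replicate 14. By the other probe sets of Col1a2 replicate 18 was the higher of these mice, as in Col1a1, so no difference between the chains is drawn from it. By the brightest probe set the Nkx2.2-/- mice all lay between replicates 15 and 21. The change was -0.36 (95% interval -1.04 to 0.32). Without replicate 15 it was -0.15, without replicate 21 -0.59 and without Nkx2.2-/- replicate 11 -0.22. Col5a1 and Col5a2, chains of type V collagen that regulates fibril thickness, had changes of -0.11 (95% interval -0.27 to 0.05) and -0.31 (-0.62 to 0.01). By brightest probe set the wild-type SD was 0.164 for Col5a1 and 0.333 for Col5a2. The other probe sets of Col5a1 had 0.293 and 0.0941, and the second of Col5a2 had 0.115, so this order depends on the probe set.

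The other collagens include the beaded filaments of type VI collagen, the network collagen Col8a1 and the fibril-associated Col12a1. All 5 were lower in sign, with changes from -0.31 to -0.22. Col6a1, Col6a2 and Col6a3 had changes of -0.22, -0.31 and -0.25, with 95% intervals that all included 0. Without replicate 15 they were -0.08, -0.18 and -0.16. Col8a1 had -0.22 with an interval of -0.38 to -0.06. Its brightest probe set varied little, with an SD of 0.0781 in wild type and 0.157 in Nkx2.2-/-, and its dimmest probe set had a change of 0.08. Col12a1 had -0.26. The basement membrane members Col4a5, a chain of type IV collagen, and Nid1, the linker nidogen, had changes of -0.16 and -0.22. Nkx2.2-/- replicate 22 was the lowest array for both, and wild-type replicate 18 the highest.

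The collagen genes Col1a2, Col3a1 and Col6a1 each followed the mean of the other 36 members from mouse to mouse. Pearson correlations with that mean were 0.92, 0.92 and 0.97 over the 10 arrays after genotype means were taken out. Without wild-type replicates 21 and 15, the arrays farthest from their group means, the values were 0.78, 0.80 and 0.94. Shared regulation of these collagen genes was not tested. The 200 bases before their RefSeq start sites are shown to compare what lies there. The windows are on GRCm38.p6, at chr6:4505418-4505617 on the plus strand for Col1a2, chr1:45311338-45311537 on the plus strand for Col3a1 and chr10:76726045-76726244 on the minus strand for Col6a1, and each is written 5′ to 3′ on the strand of the gene. Capitals mark any match, on either strand, to the CCAAT box, the GC box, the TATA box or the forkhead core, which are spelled out after the sequences.
Col1a2: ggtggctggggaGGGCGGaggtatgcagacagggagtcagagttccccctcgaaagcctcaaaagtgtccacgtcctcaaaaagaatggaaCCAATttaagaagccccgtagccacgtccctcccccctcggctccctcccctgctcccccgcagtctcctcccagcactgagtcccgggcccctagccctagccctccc
Col3a1: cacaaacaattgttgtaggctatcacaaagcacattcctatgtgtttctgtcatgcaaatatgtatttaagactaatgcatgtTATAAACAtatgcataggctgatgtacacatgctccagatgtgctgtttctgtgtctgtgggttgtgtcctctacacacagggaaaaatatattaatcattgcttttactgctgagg
Col6a1: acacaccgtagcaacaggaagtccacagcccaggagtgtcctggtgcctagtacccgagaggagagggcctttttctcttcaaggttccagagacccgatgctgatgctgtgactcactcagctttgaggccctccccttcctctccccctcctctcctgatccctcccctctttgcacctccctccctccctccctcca

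Col1a2 holds a CCAAT box, which ends 105 bases before the start, and a GC box farther out. In Col3a1 the TATA box match and the forkhead core match overlap, and Col6a1 has no match in its 200 bases. RefSeq gave 33 promoter windows for 24 of the 37 genes. Over the 250 bases before the start, CCAAT was in 27.3% of the member windows and 33.8% of all windows. The GC box, searched as GGGCGG, was in 51.5% and 32.7%. The TATA box, searched as TATAAA, was in 12.1% and 12.4%. The forkhead core, searched as TAAACA, was in 9.09% and 12.03%. Each was searched on both strands, and these are matches of letters, not sites.

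Small leucine-rich proteoglycans coat collagen fibrils and set their spacing. With Islr, a leucine-rich protein of mesenchymal cells, all 6 were lower in sign, from -0.45 to -0.15. Dcn, decorin, read 6.79, 7.91, 6.75, 6.78 and 6.03, and then 6.72, 6.69, 5.99, 6.34 and 6.25. Replicate 15 stood alone, more than 1 log2 unit above every other mouse, and without it the change went from -0.45 (95% interval -1.09 to 0.18) to -0.19, and without replicate 21 to -0.66. Ogn, osteoglycin, read 6.02, 7.04, 5.84, 6.18 and 5.47, and then 5.51, 6.13, 5.64, 5.81 and 5.43. As in Dcn, replicate 15 lay above all others, with a change of -0.41 (95% interval -0.96 to 0.15), -0.17 without it and -0.57 without replicate 21.

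Lum, lumican, differed from both in its wild-type mice. It read 5.66, 5.87, 5.69, 5.81 and 5.03, and then 5.34, 5.43, 4.99, 5.16 and 5.48. Of the wild-type mice 4 lay together above all Nkx2.2-/- mice, and replicate 21 lay below 4 of those 5. The change was -0.33 (95% interval -0.67 to 0.005), and it ran from -0.48 without replicate 21 to -0.26 without Nkx2.2-/- replicate 22. Bgn, biglycan, had -0.30 by its brightest probe set, with an interval of -0.51 to -0.09 and a limma adjusted p of 0.9997. Its other probe sets had -0.12 (95% interval -0.31 to 0.07) and -0.19 (-0.43 to 0.04). Fmod, fibromodulin, had -0.15 by its brightest probe set and from -0.31 to -0.07 over 6 probe sets. Islr had -0.40, and -0.22 without replicate 15.

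**Figure D3:**
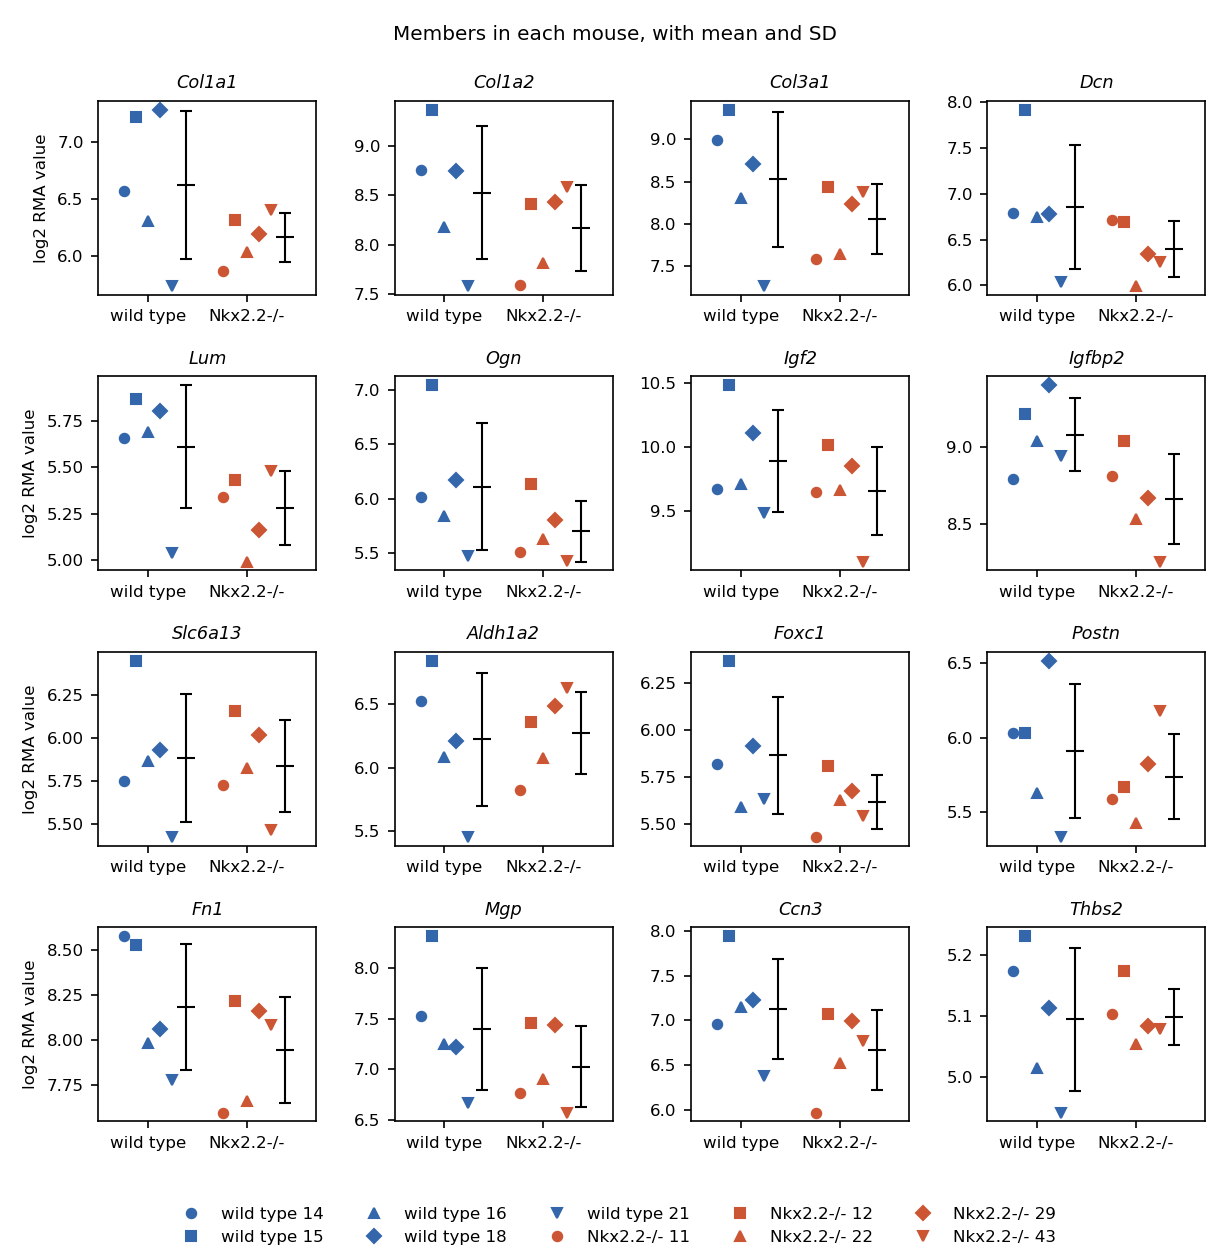
Log2 values of 16 members in each mouse (points, with 1 marker shape per replicate and genotype), with the group mean and SD beside them (bars, n = 5 each). The vertical axes differ between panels. The groups overlap in all 16, and wild-type replicate 15 (blue square) is the highest point in most panels.

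Glycoproteins of the matrix link collagen, elastic fibres and cells. Fn1, fibronectin, read 8.58, 8.53, 7.98, 8.06 and 7.78, and then 7.60, 8.21, 7.66, 8.16 and 8.09. Replicates 14 and 15 were high and Nkx2.2-/- replicates 11 and 22 low, with the rest mixed, and the change was -0.24 (95% interval -0.63 to 0.15), or -0.14 without replicate 14. Mgp, matrix Gla protein, an inhibitor of calcification, read 7.53, 8.31, 7.25, 7.22 and 6.67, and then 6.76, 7.45, 6.90, 7.44 and 6.57. Its change was -0.37 (95% interval -0.99 to 0.24), with -0.14 without replicate 15 and -0.55 without replicate 21. Ccn3, a secreted matricellular protein, read 6.95, 7.94, 7.15, 7.23 and 6.38, and then 5.97, 7.07, 6.52, 6.99 and 6.77. The change was -0.46 (95% interval -1.07 to 0.15), with -0.26 without replicate 15 and -0.29 without Nkx2.2-/- replicate 11, and both of its probe sets were lower in sign.

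Postn, periostin, a matrix protein of dense connective tissue and of bone surfaces, read 6.03, 6.03, 5.63, 6.52 and 5.33, and then 5.59, 5.67, 5.43, 5.82 and 6.18. Replicate 18 was its highest array and Nkx2.2-/- replicate 43 came next, so its order of mice was not that of Mgp. The change was -0.17 (95% interval -0.63 to 0.29), and it ran from -0.31 without replicate 21 to -0.02 without replicate 18. Thbs2, thrombospondin 2, read 5.17, 5.23, 5.01, 5.11 and 4.94, and then 5.10, 5.17, 5.05, 5.08 and 5.08. The change was 0.0041 by this brightest probe set (95% interval -0.12 to 0.13), and all 10 arrays lay within the wild-type span of 0.29. Its other probe sets had -0.09 and -0.14, so the sign depends on the probe set. Fbln1, fibulin 1, had -0.12, which became 0.04 without Nkx2.2-/- replicate 43.

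Enzymes and helpers of collagen assembly were the crosslinking oxidase Lox and Pcolce, which speeds the trimming of procollagen. Lox had a change of -0.09 (95% interval -0.30 to 0.13). Pcolce had -0.40 (95% interval -0.79 to -0.01). Its second probe set had -0.18.

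The insulin-like growth factor members were the ligand Igf2 and the binding protein Igfbp2, which holds such ligands in the extracellular space. Igf2 read 9.67, 10.48, 9.71, 10.10 and 9.49, and then 9.65, 10.02, 9.66, 9.85 and 9.10. Nkx2.2-/- replicate 43 was the lowest and replicate 15 the highest, and the 8 arrays between them were mixed in genotype. The change was -0.23 (95% interval -0.69 to 0.22), with -0.09 without replicate 15 and -0.10 without Nkx2.2-/- replicate 43. Igfbp2 read 8.79, 9.21, 9.04, 9.40 and 8.94, and then 8.81, 9.04, 8.53, 8.67 and 8.25. The change was -0.42 (95% interval -0.74 to -0.09, limma adjusted p = 0.9997), and the 3 lowest arrays were Nkx2.2-/- mice.

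The forkhead factors Foxc1, Foxc2 and Foxd1 are transcription factors of meningeal precursors. Foxc1 read 5.82, 6.37, 5.59, 5.91 and 5.64, and then 5.43, 5.81, 5.63, 5.67 and 5.55. Apart from replicate 15 the wild-type and Nkx2.2-/- mice covered much the same values, with a change of -0.25 (95% interval -0.54 to 0.05). Foxc2 and Foxd1 had -0.20 and -0.15. Without replicate 15 these 3 changes were -0.12, -0.03 and 0.04, and without replicate 21 those of Foxc2 and Foxd1 were -0.36 and -0.25.

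Retinoic acid from the meninges depends on the dehydrogenase Aldh1a2, and Crabp2 carries it to its nuclear receptors. Aldh1a2 read 6.53, 6.84, 6.09, 6.21 and 5.46, and then 5.82, 6.36, 6.08, 6.48 and 6.62. The Nkx2.2-/- values all lay between replicates 15 and 21, and the change was 0.05 (95% interval -0.47 to 0.57), the highest of any member gene by brightest probe set. It ran from -0.14 without replicate 21 to 0.20 without replicate 15. Crabp2 had a change of -0.21, and -0.07 without replicate 15.

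Transporters and barrier proteins of the leptomeninges completed the set. Slc6a13, a GABA and taurine transporter, read 5.75, 6.45, 5.87, 5.93 and 5.43, and then 5.73, 6.16, 5.83, 6.02 and 5.47. The groups lay on top of each other, with a change of -0.05 (95% interval -0.44 to 0.35). Slc6a20a, an imino acid transporter, had -0.18, Cdh1, the E-cadherin of epithelia and of the arachnoid barrier, had -0.25, and the complement inhibitor Serping1 had -0.17. All 4 were lower in sign and their 95% intervals included 0. Cdh1 was at -0.02 without replicate 15 and -0.46 without replicate 21, Slc6a20a at -0.05 without Nkx2.2-/- replicate 22, and Serping1 at -0.09 without replicate 14.

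**Figure D4:**
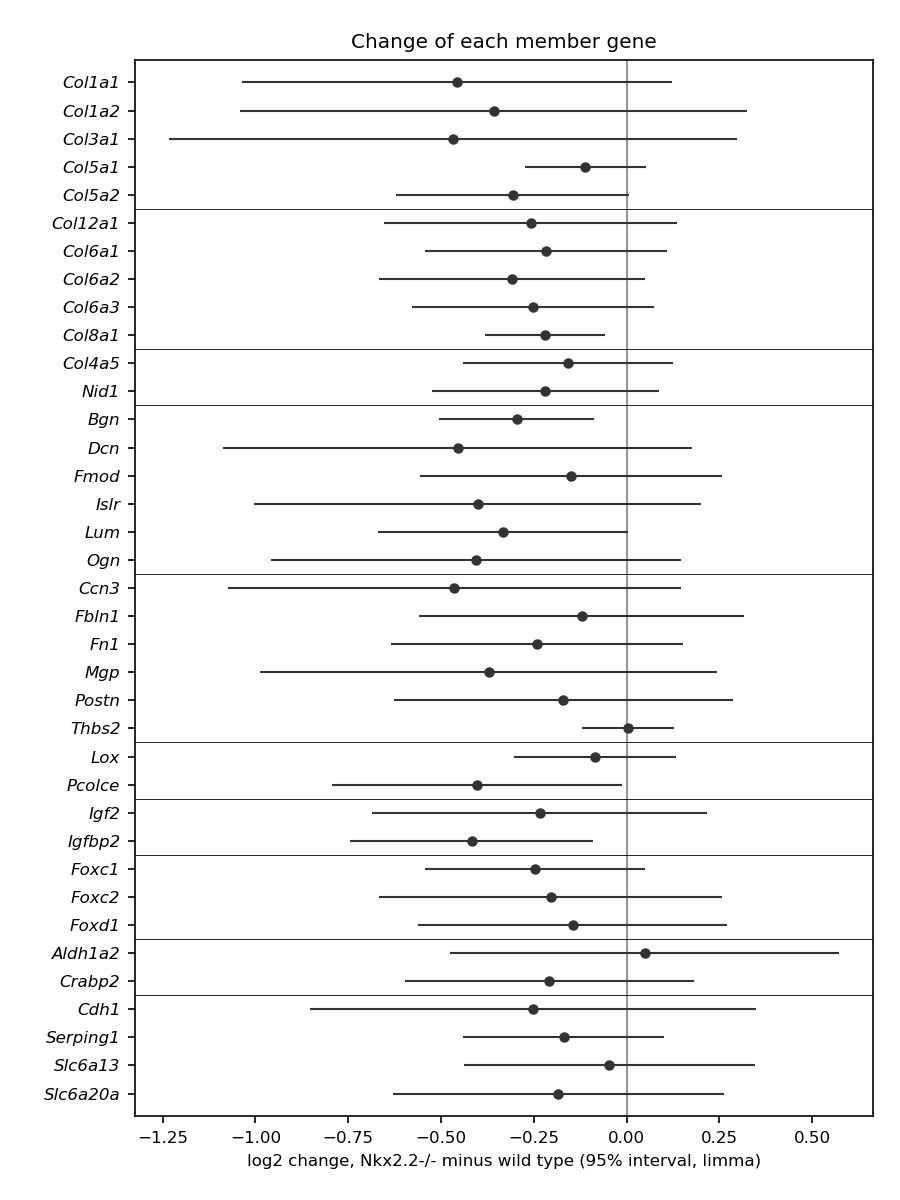
Log2 change of each of the 37 genes, Nkx2.2-/- minus wild type (horizontal axis), with the 95% limma interval as bars, grouped by role in the order of the text. Points lie between -0.47 and 0.05, and the intervals of Bgn, Col8a1, Igfbp2 and Pcolce are those that do not reach 0.

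The members did not follow a single order of mice. Against the mean of the other 36 genes, with each genotype mean taken out, the correlation over the 10 arrays ran from 0.09 for Nid1 to 0.97 for Col6a1, with a median of 0.85. It was 0.9 or more for 12 of the 37. The points share arrays and normalization, and without wild-type replicates 21 and 15, the arrays farthest from their group means, the median was 0.68. Foxc2, Col6a2, Ogn and Cdh1 followed Col6a1 with values from 0.96 to 0.93. Fbln1, Igfbp2, Col4a5, Col5a1 and Col8a1 were the loosest after Nid1, from 0.21 to 0.56.

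Nkx2.2-/- replicate 43 stood at both ends. Among the Nkx2.2-/- mice it was highest in 12 genes, which were Col1a1, Col1a2, Col12a1, Col4a5, Col5a2, Col6a3, Aldh1a2, Lox, Lum, Nid1, Postn and Slc6a20a. It was lowest in 10, which were Crabp2, Fbln1, Fmod, Foxd1, Igf2, Igfbp2, Islr, Mgp, Ogn and Slc6a13. These were 32.4% and 27.0% of the members, beside 29.2% and 27.0% of all genes in which it was the highest and the lowest of its group, so shares near the background and not particular to the members. This array had the widest difference between the 3 prime and 5 prime control probe sets of Gapdh, 3.78, and wild-type replicate 14 had 2.13, against -0.32 to 0.13 on the other 8. Those arrays were also the 2 lowest for Fbln1, at 5.86 and 6.06, with the other 8 between 6.47 and 6.92. For Igfbp2 each was the lowest of its group, at 8.25 and 8.79. The Igfbp2 change was -0.39 without both arrays and -0.32 without replicate 43 alone, in place of -0.42. Without both arrays the mean change of the members was -0.24 in place of -0.25. The Fbln1 change was -0.10 without both arrays, in place of -0.12. With the Gapdh difference as a covariate it was -0.03, and the Igfbp2 change was -0.36. Beyond these fits, the part of the Gapdh difference in the Fbln1 and Igfbp2 values was not tested.

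Wild-type replicate 18 stood apart in another way. It was the highest array in 7 members, which were Col1a1, Col4a5, Col5a1, Col8a1, Igfbp2, Nid1 and Postn. That is 18.9% of the members, beside 7.95% of all genes. On the same array Ibsp, bone sialoprotein, which was chosen after its values were seen, read 5.64, with the other 9 arrays between 3.94 and 4.65. The bone genes Sp7 and Alpl read 5.43 and 5.58 there, inside their ranges of 5.28 to 5.55 and 5.30 to 5.72 over all arrays. The cartilage and bone list (17 of 19 genes measured, 0 called, 1 lower at an unadjusted limma p under 0.05) had its highest mean, 5.33, on replicate 18, where the other wild-type mice reached down to 5.12 and the Nkx2.2-/- mice lay between 5.12 and 5.18. The part of bone in the Col1a1 value was not tested.

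Lists of cell types that share some of these genes, or that lie next to the dissected tissue, were read beside the members. Mural cell genes (15 measured) had 0 called either way, 1 lower at an unadjusted limma p under 0.05, and a median change of -0.03. Their mean lay between 5.81 and 6.08 in wild type and between 5.79 and 5.96 in Nkx2.2-/-, again with replicate 15 highest and 21 lowest in wild type. Of the 15 mural genes 11 were lower in sign and 4 higher, where 53% of all genes were lower. Rgs5, a pericyte gene, had a change of -0.39, Pdgfrb one of -0.19 and Acta2 one of -0.03 (limma adjusted p = 0.9997 for each). Endothelial genes (14 of 15 measured, 0 called and 1 higher at that unadjusted threshold) had a median change of -0.01, with means from 6.07 to 6.26 and from 6.08 to 6.20. Their part in the member means was not tested.

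Choroid plexus genes (13 of 15 measured, 0 called by either threshold) had a median change of -0.25, close to that of the members, but ordered the mice otherwise. Their mean was highest in wild-type replicate 18, at 6.61, and lowest in wild-type replicate 14, at 5.50, and ran from 5.25 in Nkx2.2-/- replicate 22 to 6.45 in replicate 11. Ttr, transthyretin, the main secreted protein of the choroid plexus, ran from 7.08 to 12.7 over the 10 arrays. Genes of the cerebellum (14 of 15 measured, 0 called by either threshold) had a median change of -0.09 and means from 6.13 to 7.11 and from 6.02 to 6.89, highest in replicates 18 and 11. Wild-type replicate 21, lowest in the meningeal members, was second highest of its group in both lists. Spinal Hox genes (12 of 13 measured, 0 called, 2 higher at the unadjusted threshold) had a median change of 0.06, with means from 4.88 to 4.99 in wild type and from 4.97 to 5.34 in Nkx2.2-/-, highest in Nkx2.2-/- replicates 22 and 29. With the spinal Hox mean as a covariate the mean change of the members was -0.14. With that covariate Bgn was at -0.18, Igfbp2 at -0.26, Pcolce at -0.145 and Col8a1 at -0.065. The Hox means of the genotypes barely overlapped, so the covariate is partly confounded with genotype and this fit cannot separate them.

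Other genes of the same pathways were read from 6 further lists. Enzymes and chaperones of collagen synthesis (22 of 26 measured) had 0 called either way, 4 lower at an unadjusted limma p under 0.05, and a median change of -0.04. Serpinh1, the collagen chaperone of the endoplasmic reticulum, had -0.41 and P4ha1, a prolyl hydroxylase subunit, -0.16 (limma adjusted p = 0.9997 for both). Other fibroblast matrix genes (36 of 37 measured, 0 called by either threshold) had a median of -0.07, with Efemp1, a fibulin, at -0.36 and Mfap4, a microfibril protein, at -0.16. Basement membrane genes (15 measured, 0 called, 2 lower unadjusted) had a median of -0.09, with Col4a1 at -0.28 and Lamb1, a laminin chain, at -0.21. The retinoid pathway (15 of 17 measured, 0 called by either threshold) had a median of -0.01, with Crabp1 at 0.19 and Aldh1a1 at -0.09. The growth factor pathway (14 of 16 measured, 0 called, 1 lower unadjusted) had a median of -0.02, with Igfbp7 at -0.19 and Igfbp4 at -0.19.

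Other meningeal genes (29 of 31 measured) had a median of -0.05, with 1 gene lower and 0 higher. The gene was Cldn11, a tight junction claudin of the arachnoid barrier that oligodendrocytes also make for myelin. It read 7.07, 7.41, 6.99, 6.81 and 6.72, and then 5.74, 6.10, 5.61, 6.04 and 5.83. The groups did not overlap, unlike those of any member, and its log2 value fell by 1.14 in Nkx2.2-/- (limma SE 0.133, adjusted p = 0.0101). Bmp4, a growth factor, came next with a change of -0.24 (limma adjusted p = 0.9997). The mean of this list was highest in wild-type replicate 15, at 6.48, and lowest in that group in replicate 21, at 6.13.

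Outside the members, 18 of 18156 genes, or 0.0991%, had a correlation of 0.9 or more with the member mean over the 10 arrays after genotype means were taken out. The 12 closest were Fkbp7, Adamtsl3, Bmp7, Fcgrt, Mpzl2, Stat6, Nid2, Igfbp4, Cavin1, Obox2, Tmem86a and Plscr2, from 0.97 to 0.91. Bmp7 is in the meningeal list, Nid2 in the basement membrane list and Igfbp4 in the growth factor list, so 3 of the 12 were. Fkbp7 is a chaperone of the endoplasmic reticulum, Bmp7 a growth factor and Cavin1 a coat protein of caveolae. Without wild-type replicates 21 and 15 the values of Fkbp7, Bmp7 and Nid2 were 0.93, 0.95 and 0.90. Obox2 and Plscr2 lay above 17.6% and 0.333% of probe sets by their mean, so they are dim. These 12 are the upper end of a ranking of all genes and carry no test.

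Probe sets of 1 gene did not all move alike. Of the 37 genes, 22 had several probe sets, and in 9 of these the probe sets differed in sign. The second probe set of Dcn had a change of 0.02 and the dimmest of Col1a2 one of 0.04, beside -0.45 and -0.36 for the brightest. Both probe sets of Col1a1 were lower in sign, at -0.46 and -0.60. Of the 73 probe sets, 16 were dimmer than the median probe set, and they include the dimmest of Col1a2, Col8a1 and Dcn.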

How the data were processed

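The authors deposited log2 values, 1 for each mouse and probe set. The submitters' processing notes name RMA, a method that subtracts background, gives all arrays 1 distribution by quantiles and reduces each set of probes to a single value. Its version and the build behind the probes are not given in the sources used here. It gives no detection call. The number of arrays limits the precision.

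Of 45101 probe sets, 64 controls were left out. Genes came from GEO's platform annotation, in which 34945 probe sets had 1 symbol, 932 several and 9160 none; each of the 73 member probe sets had 1. The RefSeq table of GRCm38.p6 changed 0 symbols. All 45037 probe sets were fitted with lmFit and eBayes of limma 3.58.1 (R 4.3.3), 5 against 5 mice without covariates, with Benjamini-Hochberg adjustment over all of them at 0.05. The test was checked on simulated data. Groups come from the sample titles.

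All members are named by their brightest probe set, with values in every mouse for 14 chosen genes and the 3 of largest change each way (only 2 were above 0), besides Nkx2-2, up to 2 genes of lowest p in each of 6 pathway lists and the 12 genes most like the members across mice. There were 12 lists of other cell types. The members and lists were chosen with earlier results of these data known, so no list or score was tested. Alternatives were other normalizations, filters, priors, array weights, covariates, probe set rules and leaving out arrays. Summaries were written in Python 3.11.15 (pandas 2.3.3) and plots drawn with matplotlib 3.10.9.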

Additional observations from a re-analysis of the deposited data

Results flagged for a closer look

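Lum in wild-type replicate 21 was far from the rest of its group. It read 5.03, and the nearest wild-type mouse read 5.66, a gap of 0.746 of the range of the group. Among 76 sets of 5 values looked at (37 genes and their mean, in each genotype) this was the 1 such case, and chance gives about 1 in 20.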

How the results depend on the processing

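The mean change of the 37 genes stayed below 0 in all 21 alternatives, from -0.37 to -0.13, and no member gene or probe set was called in any of them (lowest limma adjusted p 0.617). When single arrays were left out, the mean ran from -0.37 (without wild-type replicate 21) to -0.13 (without wild-type replicate 15), the median from -0.34 to -0.14, and the number of genes higher in sign from 0 to 5. With the spinal Hox mean as a covariate that number was 5, with the Gapdh difference as a covariate it was 1 and with all probe sets of each gene averaged it was 1, in place of 2. Of 776 values of single genes under the alternatives, 19 changed sign, in 9 genes. With the spinal Hox covariate Nid1 was at 0.056, Lox at 0.034 and Postn at 0.014. Thbs2 was at -0.075 as the mean of its probe sets. Aldh1a2 was at -0.0035 with array weights and -0.010 with the Gapdh covariate. Slc6a13 was at 0.021 with array weights and 0.014 without both arrays of low 5 prime Gapdh signal. Without single arrays Fbln1 ran from -0.26 to 0.041, Thbs2 from -0.034 to 0.038, Fmod from -0.24 to 0.0044, Aldh1a2 from -0.14 to 0.20, Foxd1 from -0.25 to 0.038 and Slc6a13 from -0.16 to 0.095. The cause was not tested. Without the dim probe sets Foxd1 gave no value and 36 genes were left. Over all probe sets 23 were called lower, and 9 with the spinal Hox covariate, which is partly confounded with genotype. No paired analysis was possible because the litter of each mouse is not given and the groups share no replicate number; any pairing of littermates was not modelled.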

Other observations

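Skeletal muscle genes were higher in sign in 11 of 12, with a median change of 0.07 and 0 called (limma). Over all genes, 53% were lower in sign. The signs of the muscle genes need not be independent of each other. Their mean lay between 4.79 and 4.92 in wild type and between 4.82 and 5.16 in Nkx2.2-/-, highest in Nkx2.2-/- replicates 43 and 29, and 10 of the 12 probe sets were dimmer than the median probe set. Schwann cell and ganglion genes (11 of 15 measured, 0 called) had a median change of 0.05, with means from 6.06 to 6.40 and from 5.90 to 6.34. Microglia and macrophage genes (16 measured, 0 called) had a median change of -0.07, with means from 6.13 to 6.30 and from 5.98 to 6.26. Astrocyte genes (12 measured, 0 called) had a median change of 0.04 and neuronal genes (12 measured, 0 called) one of 0.02, with neuronal means from 10.11 to 10.18 in wild type and from 9.96 to 10.35 in Nkx2.2-/-. Red cell genes (6 of 12 measured, 0 called) had a median change of -0.01. At an unadjusted limma p under 0.05, 1 microglial and 2 astrocyte genes were lower and none of the others was in either direction.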
